A study of Drosophila melanogaster with 2 samples.

Results

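Remote summits are here the positions of highest Tailless signal that lay more than 10 kb from the nearest transcription start site (TSS) of any protein-coding gene. Of the 4045 summits in the thresholded peak list, 537 (13.3%, exact binomial 95% interval 12.2 to 14.4%) met that rule, and the remaining 3508 lay within 10 kb of a TSS. A TSS was the 5′ end of any annotated transcript of a protein-coding gene, and the rule used position alone, not signal, replicate values or summit sequence. It does favour long gaps between genes and long introns, and with them the genes that border or hold these. The positions came from ChIP-seq, in which chromatin bound by a tagged protein is precipitated with an antibody and sequenced. Whole Drosophila melanogaster embryos, 0 to 4 h old and with males and females pooled, were taken from strain 8T-GFP, a transgenic line in which GFP is fused to the C terminus of the tll product, and the precipitation used an antibody to GFP. Chromatin had been sonicated to 200 to 800 bp. There was 1 group with 2 biological replicates, numbered 1 and 3, and both carried the transgene. The labels leave the state of the native tll gene unsaid, and the values describe the tagged protein over all cells of the embryo together. Control samples were not analysed here, because the comparison with a control was already inside the deposited peak calls.

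Tailless is an orphan nuclear receptor of the terminal gap class, made at both poles of the early embryo, where it acts mostly as a repressor of transcription and delimits the domains of other segmentation genes. Developmental regulators in Drosophila are often surrounded by long stretches without other genes, and enhancers in those stretches or inside long introns can act on a distant promoter. For such sites the nearest TSS is a weak guide to the target, so the genes on both sides and the host gene of each intron are given here. No gene was assigned as a target.

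The sequence around the strongest remote summits is shown first, because the values below turn on these regions. Tailless recognises the word AAGTCA, which reads TGACTT on the opposite strand. Each line holds a summit with 50 bases on either side, from the plus strand of the Release 6 assembly (dm6, RefSeq copy), with the word in capitals in either reading. These are 7 of the 8 strongest remote summits of 5 arms that held the word, with their rank among all 4045 summits, and the CG42758 to HGTX sequence held it in 2 places.
ftz to Antp, rank 1, 3R:6885333-6885433: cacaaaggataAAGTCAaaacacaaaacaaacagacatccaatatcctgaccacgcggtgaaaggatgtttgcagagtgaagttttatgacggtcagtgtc
Sox21b to D, rank 14, 3L:14150141-14150241: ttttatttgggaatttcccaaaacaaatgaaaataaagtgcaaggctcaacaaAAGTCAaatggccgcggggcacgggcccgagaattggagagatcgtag
Dfd to Scr, rank 20, 3R:6805051-6805151: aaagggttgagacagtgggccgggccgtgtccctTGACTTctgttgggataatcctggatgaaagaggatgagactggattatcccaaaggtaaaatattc
hth intron, rank 26, 3R:10626769-10626869: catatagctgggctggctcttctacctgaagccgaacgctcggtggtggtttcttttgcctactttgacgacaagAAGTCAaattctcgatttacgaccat
Dfd to Scr, rank 32, 3R:6810641-6810741: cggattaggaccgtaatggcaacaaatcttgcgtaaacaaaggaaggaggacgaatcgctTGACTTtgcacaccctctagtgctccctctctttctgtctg
Prx1 to Tollo, rank 45, 3L:15223902-15224002: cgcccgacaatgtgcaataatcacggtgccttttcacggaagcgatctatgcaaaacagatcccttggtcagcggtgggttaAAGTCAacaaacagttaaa
CG42758 to HGTX, rank 163, 3L:14582868-14582968: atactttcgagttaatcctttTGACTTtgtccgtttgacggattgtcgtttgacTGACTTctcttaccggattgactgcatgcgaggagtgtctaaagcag
In the Sox21b to D and in both Dfd to Scr sequences the centre of the word lay 5.5, 13.5 and 12.5 bp from the summit, while in the ftz to Antp sequence it lay 36.5 bp away. The next lines are the strongest pair of remote summits that lacked the word within 50 bp, so a strong remote signal did not require these letters at the summit.
SoxN to CG32986, rank 5, 2L:8846108-8846208: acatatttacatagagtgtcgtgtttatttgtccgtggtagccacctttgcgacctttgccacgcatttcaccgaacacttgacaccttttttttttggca
tinc intron, rank 11, 3R:17826309-17826409: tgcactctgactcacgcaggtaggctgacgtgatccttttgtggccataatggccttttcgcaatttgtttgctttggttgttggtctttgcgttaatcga

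The strongest summit of the whole list was a remote one. It lay at position 6885383 of arm 3R, between the pair-rule gene ftz, 21059 bp away, and the Hox gene Antp, 47457 bp away on the other side. The signal value, an enrichment that the authors' peak caller gave to each summit on a scale the sources used here do not state, was 1847 in replicate 1, 1860 in replicate 3 and 3700 in the pooled list. On the log2 scale the replicates averaged 10.86 ± 0.01 (SD, n = 2). The replicates therefore gave nearly the same value at this summit. They differed more at rank 6, with 1237 in replicate 1 and 1040 in replicate 3. A second summit of the same interval ranked 29 with a pooled value of 1613, and summits that share an interval carry 1 pair of replicate values between them.

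Remote summits were unevenly spread over the ranking. Among the 25 strongest of the 4045 summits 9 were remote (36.0%, exact 95% interval 18.0 to 57.5%), and among ranks 26 to 100 there were 17 of 75 (22.7%). Below rank 100 the share stayed between 11.8% and 15% in every range examined. The same drop was seen when each replicate was ranked on its own: replicate 1 gave 36.0% and 20% in the top ranges and at most 15.5% below them, and replicate 3 gave 40.0%, 18.7% and at most 15%. The interval for the 25 strongest is wide, since it rests on 9 summits. In the pooled list below the threshold 4245 of 25955 summits (16.4%) were remote.

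**Figure D1:**
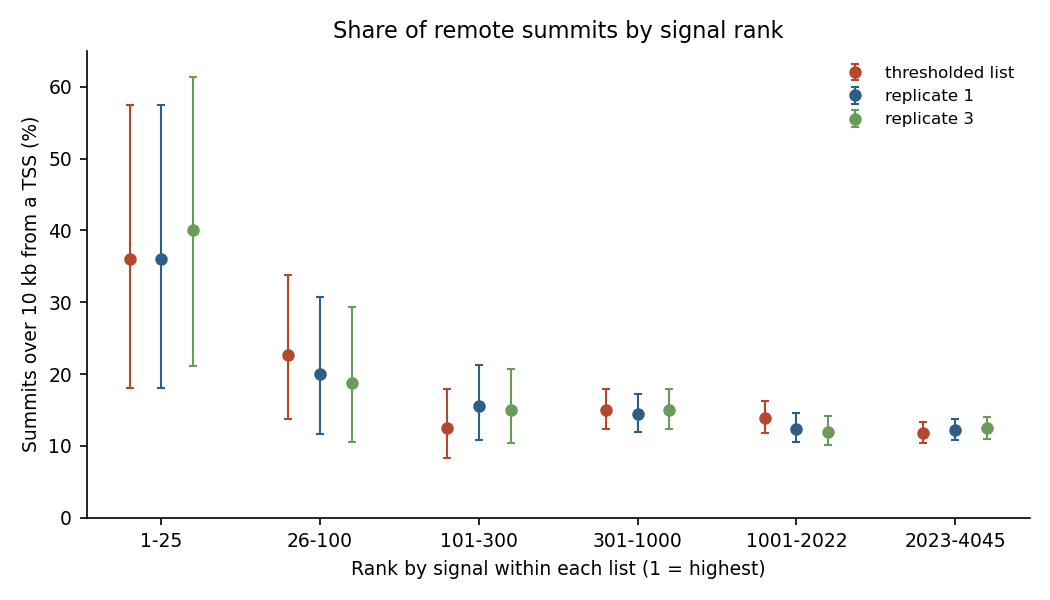
Share of summits over 10 kb from a protein-coding TSS (y axis, percent) in ranges of signal rank (x axis), for the thresholded list and for the strongest 4045 summits of each replicate; bars are exact binomial 95% intervals. The 25 strongest summits gave 36.0% to 40.0% in all 3 rankings, against 12.5% to 15.5% in the range that starts after rank 100.

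The 20 strongest remote summits held pooled values from 1213 to 3700, and all 20 lay among the strongest 4045 of both replicates. Of these 16 were intergenic and 4 intronic. The summit of rank 5 lay between SoxN, a SoxB gene of the early neuroectoderm, at 20513 bp, and CG32986 at 16618 bp, with values of 1080 in replicate 1 and 1209 in replicate 3. That of rank 6 lay between tsh, which encodes a zinc finger protein of the trunk, at 48514 bp, and CG11629 at 21182 bp, with 1237 and 1040. The nearer gene in both cases was the less characterised one, and the patterning gene stood on the far side. At rank 14 both neighbours were SoxB genes, Sox21b at 18867 bp and D at 27346 bp, and the replicate values were 1047 and 886.

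Hox and Iroquois genes flanked several of the others. Ranks 20 and 32 lay 13265 and 18855 bp from Dfd on the side of Scr, Hox genes of the head and first thoracic segments, with 953 and 842 in replicates 1 and 3 at rank 20 and 823 and 766 at rank 32. Rank 21 lay 15904 bp from mirr and 68104 bp from caup, homeodomain genes of the Iroquois cluster, with 952 and 819. In each of these the value of replicate 1 exceeded that of replicate 3, as it did at the typical remote summit, where replicate 1 was 1.11 times replicate 3 in the median. Rank 40 lay beyond the other end of Antp, 36638 bp from it and 16469 bp from Sodh1, a sorbitol dehydrogenase gene, with 844 and 642.

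The intronic summits among the 20 lay in tinc (rank 11, in an intron of 14212 bp, 1106 and 1001 in replicates 1 and 3), dlp (rank 12, 30913 bp, 1075 and 953), Meltrin (rank 15, 23961 bp, 1008 and 912) and hth (rank 26, 24823 bp, 866 and 829). The gene dlp encodes a glypican that carries extracellular signals, Meltrin a metalloprotease and hth the homeodomain cofactor of the Hox proteins. The summit in hth had a TSS of hth itself on both sides, at 12543 and 12749 bp. At the Meltrin summit the nearest TSS was that of BigH1, the linker histone gene of the early embryo, at 16558 bp. The rest of the 20 included summits between Prx1 and Tollo, a Toll family receptor gene (rank 45, 785 and 683), beside the Polycomb group gene Su(z)2 (rank 56, 710 and 582), between plh and corto (rank 67, 722 and 512), between the T-box genes Doc2 and Doc1 (rank 69, 643 and 585) and between the Bearded family genes BobA and Tom (rank 70, 597 and 623).

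**Figure D2:**
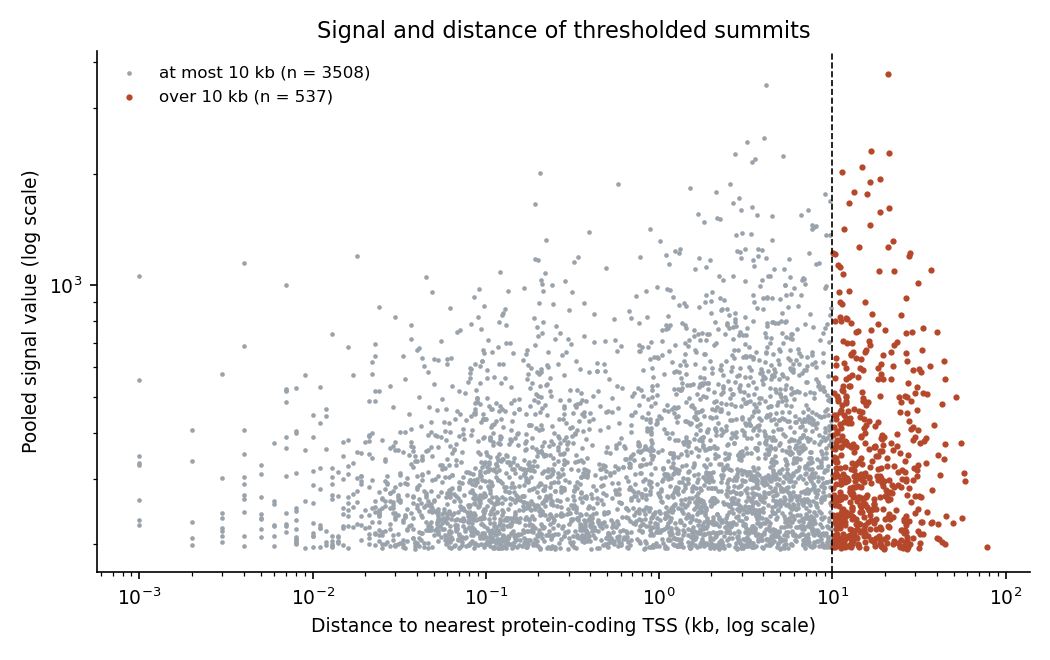
Pooled signal value (y axis, log scale) against distance to the nearest protein-coding TSS in kb (x axis, log scale; the few summits on a TSS are drawn at 1 bp) for the thresholded summits; the dashed line is 10 kb and each point is 1 summit. The 537 remote summits span values from 195 to 3700, nearly the whole range of the list.

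Over all members the signal was spread much as elsewhere in the list. Remote summits had a median pooled value of 302 (quartiles 233 and 456), the other 3508 summits 284 (228 and 405), a ratio of 1.06. The ratio was 1.07 in replicate 1 (medians 180 and 168) and 1.07 in replicate 3 (162 and 152). Among the others, summits within 500 bp of a TSS had a median of 266 and those between 500 bp and 10 kb had 301. Summits 10 to 20 kb from a TSS had a median of 303 and the 164 beyond 20 kb had 299, so the medians were close at both distances. With 1 group of 2 replicates no permutation test of these medians could pass 0.05, and none was run. The lists carry no read counts, and how deeply either replicate was sequenced is unknown.

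The replicates recovered remote summits about as often as the rest. Of the 537, 430 (80.1%, exact 95% interval 76.4 to 83.4%) overlapped one of the 4045 strongest entries of both replicates, against 78.3% of all thresholded summits. Replicate 1 held 470 of them among its strongest and replicate 3 held 486, 40 were found in replicate 1 alone, 56 in replicate 3 alone and 11 in neither at that depth of ranking. All 537 were present somewhere in the 30000 entries of each replicate. The thresholded list came from these same replicates through an irreproducible discovery rate threshold. Presence in both is therefore in part set by that selection, for remote and other summits alike. The SD of the log2 replicate values had a median of 0.179 at remote summits and 0.194 at the others. At 9 remote summits (1.68%) the replicates differed by more than 2-fold, the widest gap being at a summit between CG16898 and CG46443 with 168 in replicate 1 and 55.6 in replicate 3.

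**Figure D3:**
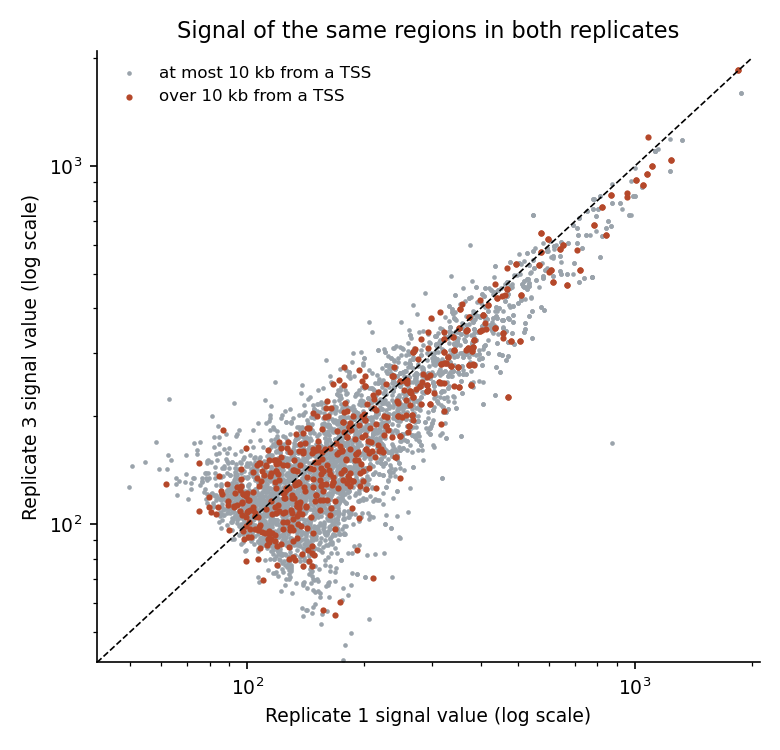
Signal value of replicate 3 (y axis, log scale) against replicate 1 (x axis, log scale) at thresholded summits, each point 1 summit and the dashed line equal values; summits that share an interval share a point. Remote summits lie within the cloud of the others, with 9 of them more than 2-fold from equality.

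Within the remote set distances fell off steadily. From 10 to 15 kb there were 260 summits, from 15 to 20 kb 113, from 20 to 30 kb 107, from 30 to 50 kb 51, and 6 lay more than 50 kb from any protein-coding TSS. The median distance was 15234 bp to the nearer flanking TSS and 29332 bp to the farther one. The farthest summit, at 3R position 10535911, lay 78365 bp from a TSS in a 14600-bp intron of hth, and its signal was near the bottom of the list (99.4 in replicate 1, 105 in replicate 3 and 197 pooled). Next came 2 intergenic summits at 57950 and 57763 bp between the odorant receptor gene Or67d and CG12362, with pooled values of 297 and 311, and 2 in an intron of olf413 at 55786 and 55575 bp, with 236 and 374. None of the 5 farthest was among the stronger 1000 summits. On either side of the limit, summits at 9865 to 9942 bp (beside dlp, B-H2, kibra, MESR3 and Psc) had pooled values of 212 to 365, and those at 10039 to 10130 bp (beside ab, kibra, mirr, CG9701 and Doc2) had 271 to 1219.

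Sequence over 10 kb from a TSS made up 29.7% of the 6 chromosome arms and held 13.3% of the thresholded summits. That is 13.5 remote summits per Mb of such sequence, against 37.4 other summits per Mb of nearer sequence. By arm, the density was 17.5 per remote Mb on 3R, 17.0 on 2L, 14.9 on 3L, 11.7 on the small chromosome 4, 8.38 on 2R and 8.32 on X. The summits were thus sparser far from a protein-coding TSS than near one on every arm. Repeats are a larger part of remote sequence, and without soft-masked bases the share of remote sequence was 26.4%.

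The spacing of the genes themselves was examined next, because a remote summit needs a gap of more than 20 kb between neighbouring TSSs. There were 1470 such gaps, and 249 of them (16.9%, exact 95% interval 15.1 to 19.0%) held at least 1 remote summit. In 119 of those the summit was alone, 64 gaps held 2, 37 held 3 and the remaining 29 held from 4 to 10. The share occupied was 8.46% for gaps of 20 to 30 kb, 20.5% for 30 to 50 kb, 31.8% for 50 to 100 kb and 15.6% for gaps above 100 kb. A longer gap holds more sequence over 10 kb from a TSS, and per Mb of it the number of remote summits fell with length, from 32.7 through 21.3 and 18.6 to 2.23.

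Gaps beside known developmental regulators were occupied more often in each length range up to 100 kb. The 16 lists of such genes (gap, pair-rule, Hox and so on, 186 genes in all) had a member on either side of 150 gaps, of which 71 (47.3%, 39.1 to 55.6%) were occupied, with 57.3 remote summits per Mb of remote sequence. Without a listed gene, 178 of 1320 gaps (13.5%, 11.7 to 15.4%) were occupied, with 10 summits per Mb. By length the shares were 26.7% and 6.57% for 20 to 30 kb, 60.0% and 15.8% for 30 to 50 kb, and 62.5% and 27.2% for 50 to 100 kb, with and without a listed gene. Above 100 kb, with 2 of 3 and 8 of 61 gaps occupied, the listed gaps were too few to compare. The median gap was of similar length in both classes, at 34.1 and 31.8 kb. Beside the members of 4 comparison lists (ribosomal protein, muscle, phototransduction and channel genes), 4 of 27 gaps (14.8%) were occupied, 3 of them among 6 gaps of 30 to 50 kb (exact 95% interval 11.8 to 88.2%). The lists were drawn up with earlier results on these data known, so the contrast is a description and no test was run on it.

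Counted by summit, 187 of the 537 remote summits (34.8%, 30.8 to 39.0%) had a listed developmental gene on at least 1 side, against 20.1% of all thresholded summits. Other summits more than 500 bp from a TSS gave 24.5%, and remote pooled summits below the threshold 26.7%. For 57 of the 187 the listed gene was the farther neighbour, which a nearest-gene rule would pass over. Both neighbours were listed for 52. The remaining 350 remote summits had no listed gene on either side, among them those in jing.

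The fullest gaps belonged to a few loci. The gap of 68516 bp from ftz to Antp held 10 remote summits, 6 intergenic ones on the ftz side and 4 in introns of Antp, with replicate 1 values from 106 to 1847 and replicate 3 values from 96.1 to 1860. The gap of 98972 bp from jing, a zinc finger gene, to CG15233 also held 10, all inside 1 intron of jing of 110416 bp, led by a summit of rank 74 with 573 and 652. The pooled values in jing had a median of 307, close to that of all remote summits. In 62972 bp between CG10750 and dnt, a Ryk family receptor tyrosine kinase gene, there were 9, all among the strongest of both replicates, although they carry 5 separate pairs of replicate values.

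The 66244 bp from abd-A to MSAmiP, inside the bithorax complex, also held 9. All of them lay in introns of MSAmiP, an annotated gene for a small peptide in the intergenic region between abd-A and Abd-B, and their pooled values ran from 197 to 743. That these count as intronic rests on the annotation of MSAmiP as protein-coding. Between tup, a LIM homeodomain gene of the dorsal ectoderm, and ssp3 there were 8, led by rank 58 with 651 and 601 in replicates 1 and 3, and between en, the segment polarity homeodomain gene, and tou there were 8, led by rank 100 with 566 and 528. A further gap, from CG16898 to CG46443, also held 8, all intergenic and 7 of them among the strongest of both replicates, with pooled values from 205 to 531. Close summits were counted one by one, and neighbouring summits can carry the same replicate values: the 8 beside en had 5 separate pairs of replicate values and the 8 from CG16898 to CG46443 had 7. Within 50 bp AAGTCA was held by 4 of 8 summits beside en, 2 of 8 beside tup, 2 of 10 from ftz to Antp and 1 of 10 in jing, and by none in the other 3 of these gaps, with 9, 9 and 8 summits. Over all remote summits the share was 17.1% and over all thresholded summits 15%, and counts this small do not separate the gaps.

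**Figure D4:**
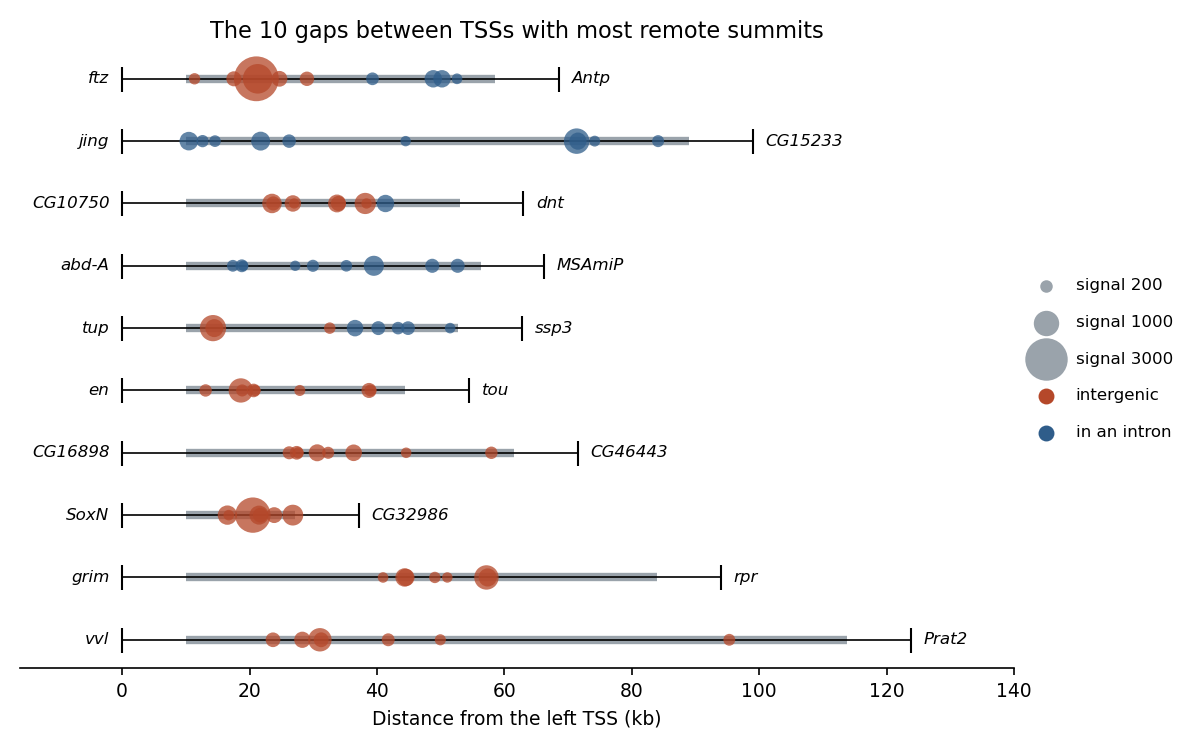
Position of remote summits (circles, area by pooled signal, colour by intergenic or intronic) along the 10 TSS gaps with most of them; x axis, distance from the left TSS in kb, with the TSSs as vertical ticks and the sequence over 10 kb from both as a grey band. The ftz to Antp and jing to CG15233 gaps hold 10 each, and the largest circle is the rank 1 summit.

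Of the 537 summits 251 (46.7%, 42.5 to 51.1%) lay in introns of protein-coding genes, 282 (52.5%) between genes and 4 in exons. Introns held 41.9% of all thresholded summits, and exons 15.3% of those within 10 kb of a TSS. The 4 exonic remote summits lay in CadN, a cadherin gene (rank 224), baz, pros and toy, genes of cell polarity, neuroblast fate and the Pax6 family. Signal was alike inside and outside introns, with a median of 301 (quartiles 235 and 413) in introns and 306 (231 and 492) between genes, although all but 4 of the 20 strongest were intergenic.

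The hosting introns were long, as the distance rule favours. Counted once per summit, their length had a median of 21515 bp over the 251 summits in 129 host genes, with a range from 395 to 110416 bp. An intron with several summits thus counts several times. For the 1443 nearer intronic summits the median was 7928 bp. Where annotated introns around a summit differed, the shortest was taken. The intron was the host's first in at least 1 transcript for 122 of 251 (48.6%), against 1021 of 1443 nearer intronic summits (70.8%). The distance rule bears on this contrast too, since a first intron begins close to a TSS, and how far was not tested. In 240 cases the host was also a flanking gene, so the summit lay between the host's own TSS and the next. In the other 11 a TSS of another gene stood nearer on each side, as at 3L position 13259919, in an intron of caps, a leucine-rich repeat gene, between CG32119 and Sfp70A4.

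After jing with 10 and MSAmiP with 9, the host with most remote summits was hth with 8. Their replicate 1 values ran from 99.4 to 866 and those of replicate 3 from 57.6 to 829, and 2 of the 8 held AAGTCA. The host CG42342 had 6, with pooled values of 200 to 356. Introns of CG42238, of the Hox gene Ubx, of ssp3 and of the ecdysone-induced nuclear receptor gene Eip75B had 5 each. The Ubx summits had a median pooled value of 512 and those of Eip75B of 220, and neither group had a summit among the strongest 200.

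Gap genes, the class to which tll belongs, had 5 remote summits and flanked 49 within 10 kb of a TSS. The thresholded list as a whole had 537 and 3508. Of the 7, 4 adjoined a gap over 20 kb, and 3 (Kr, kni and knrl) had remote summits, in 3 of their 4 long gaps with replicate 1 values of 99.7 to 291 and replicate 3 values of 87.4 to 244. The strongest lay 14791 bp from Kr, a zinc finger repressor, in an intron of CG9380 (rank 637), and the next 19840 bp from knrl, a nuclear receptor gene, in its own intron (rank 1124). Neither tll itself nor hkb, hb or gt had a remote summit on either side. Head genes flanked 51 nearer summits and had more remote ones. Of the 10, 8 adjoined a gap over 20 kb and 7 had remote summits, 17 in all, every one intergenic. They were led by the Sox21b to D gap and followed by croc, a forkhead gene, where a summit 11954 bp away had 399 in replicate 1 and 422 in replicate 3 (rank 204).

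Hox genes flanked 52 summits within 10 kb of a TSS. They had the most remote summits of any list, with 46 beside 7 of the 8 members, in 8 of their 11 long gaps. Beside Antp there were 15, beside abd-A 12, beside Abd-B 6, beside Ubx, Dfd and Scr 5 each and beside pb 3. The remaining member, lab, adjoined no gap over 20 kb, so the rule left it none. A summit between 2 members counts for both, as do those from Dfd to Scr. Of the 46, 23 were intergenic and 23 intronic, 41 (89.1%) were among the strongest of both replicates, against 78.3% of all thresholded summits, and 7 (15.2%) held AAGTCA, near the 15% of all. The highest pooled values lay in the Antennapedia complex, up to 3700 from ftz to Antp and 1779 from Dfd to Scr, where the median was 658. Beside pb they reached 785, beside Ubx 768, beside abd-A 743 and beside Abd-B 599. The Antennapedia complex held weak ones as well, since values from ftz to Antp went down to 211. The list of cofactor and trunk genes also holds Iroquois and Doc genes, and it flanked 33 nearer summits. It added 23 remote summits beside hth, tsh, caup, mirr, Doc1 and Doc2, with a median pooled value of 395.

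The pair-rule list had 21 remote summits beside 6 of 11 members (ftz, run, hry, opa, drm and Ptx1). Pair-rule genes proper set the alternating segments, but the list is wider, with Ptx1 and with drm, also a posterior gut gene here. Apart from the 10 shared with Antp, the strongest was 19075 bp from run, a Runt domain gene, with 335 and 277 in replicates 1 and 3. Segment polarity genes, which act within each segment, had 18 beside 6 of 13 (en, mid, H15, nkd, wg and Wnt4), among them a summit 12455 bp from the T-box gene mid with 509 and 435 (rank 137). Replicate 1 gave the higher value at the run and the mid summit. Dorsoventral genes had 14 beside 5 of 18 (tup, ush, vn, vnd and Dr), 8 of them intronic, and after tup the leading one lay in an intron of the GATA cofactor gene ush with 366 and 306. Posterior gut genes had 6, beside fkh and drm, the strongest 29598 bp from fkh with 228 and 246. Of summits within 10 kb of a TSS, the pair-rule list flanked 67, segment polarity 48, dorsoventral 70 and posterior gut 35. A gene that adjoins no gap over 20 kb cannot have a remote summit under the rule. Such a gap adjoined 9 genes of the pair-rule list, 9 of segment polarity, 11 of dorsoventral and 2 of posterior gut.

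In the nervous system lists, neuroblast genes had 12 beside SoxN, ac, sc and pros, with a median pooled value of 454. Of 7 summits in the SoxN to CG32986 gap all were recovered among the strongest of both replicates, and 2 held AAGTCA. Brain and eye genes had 4, the strongest between danr and dan with 180 and 207. Notch pathway genes had 11, beside the ligand gene Delta (5, the strongest with 480 and 325), in introns of the receptor gene N (3) and between BobA and Tom. These lists range from single summits to small clusters beside 1 member. Within 10 kb of a TSS the neuroblast list flanked 42 summits, brain and eye 28 and Notch 39.

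Other receptors and signals had at most 11 remote summits per list. Nuclear receptor genes had 11 remote summits beside 5 of 21 (EcR, Eip75B, Hr39, kni and knrl), with a median pooled value of 229, below the 302 of all remote summits, and the strongest lay in an intron of EcR, the ecdysone receptor gene, with 292 and 236. Limb and appendage genes had 5, led by an intronic summit in bab2, a BTB domain gene, with 468 and 517. JAK-STAT and EGFR signal genes had 5, led by 1 between the cytokine genes upd3 and upd1 with 323 and 303. Axon guidance genes had 8, led by an intronic summit in NetA, a netrin gene, with 268 and 227. Within 10 kb of a TSS these lists flanked 49, 23, 47 and 32 summits in turn. Of their 21, 11, 13 and 15 genes, 12, 11, 7 and 13 adjoined a gap over 20 kb, which a remote summit needs. No remote summit flanked any of the 10 Polycomb and chromatin genes, the 20 ribosomal protein genes or the 15 phototransduction genes on the lists, of which 3, 2 and 3 adjoined a long gap. Of the muscle genes Zasp52 alone had any, with 4, and of the channel genes Rdl, Shal and nAChRalpha1 had 1 each, at pooled values up to 298.

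The recognition words were then counted within 50 bp of each summit, on both strands, and in equally long windows placed 500 bp away on both sides. AAGTCA was present at 92 of 537 remote summits (17.1%, exact 95% interval 14.0 to 20.6%), against 15% of all thresholded summits. The remote flanking windows held it in 6.89%, so the summit share was 2.49-fold the flanks, and the ratio was 3.29 for the other summits, whose flanks held it in 4.48%. With windows 1000 bp away in their place, the flanks held the word in 4.75% (remote) and 5.47% (others), with ratios of 3.61 and 2.69, so the order of the ratios turned with the flank distance. Its longer form AAAGTCA was present at 9.12% of remote summits and 2.98% of their flanks, and at 8.31% of all thresholded summits. By signal, the share with AAGTCA was 19.6%, 16.8% and 15.1% in the strongest, middle and weakest 179 remote summits. Other summits in the same signal ranges gave 19.5%, 15% and 10.7%. Between genes the share was 19.1% and in introns 14.7%, with overlapping intervals (14.7 to 24.2% and 10.6 to 19.7%), and a match describes the letters only, not a bound site.

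Words of other embryonic factors were also counted. CAGGTA, to which the pioneer factor Zelda binds, lay at 6.15% (4.27 to 8.52%) of remote summits and 2.51% of their flanks, and at 8.65% of summits 500 bp to 10 kb from a TSS. GAGAGA, bound by GAGA factor, was at 7.82% with 3.35% in the flanks, near the 6.97% of all thresholded summits. AGGTCA, the core site of many nuclear receptors, was at 3.54% with 1.49%, near the 3.71% of all. TATCGATA, an element of core promoters, was at 1 remote summit (0.186%, 0.00471 to 1.03%). That was near the 0.201% of summits 500 bp to 10 kb from a TSS, while summits within 500 bp gave 4.21%. GCCAT, the core of the Pho site, was at 24.0% (20.5 to 27.9%) of remote summits with 16.5% in the flanks, a ratio of 1.46. All other summits together gave 18.6% with 17.8% in the flanks, a ratio of 1.05. Those 500 bp to 10 kb from a TSS gave 20.3% (18.5 to 22.1%), a ratio of 1.12, so the interval overlapped that of remote summits. Remote pooled summits below the threshold gave 22.5%, a ratio of 1.15. TAATCC, the word of Bicoid, was at 4.66% with 3.45% in the flanks, near the 4.62% of all thresholded summits. Base composition was close, with a median GC content of 45.5% at remote summits and 44.6% at the others, and its part in the word counts was not tested. AAGTCA and AAAGTCA overlap each other, and a window can hold several words.

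**Figure D5:**
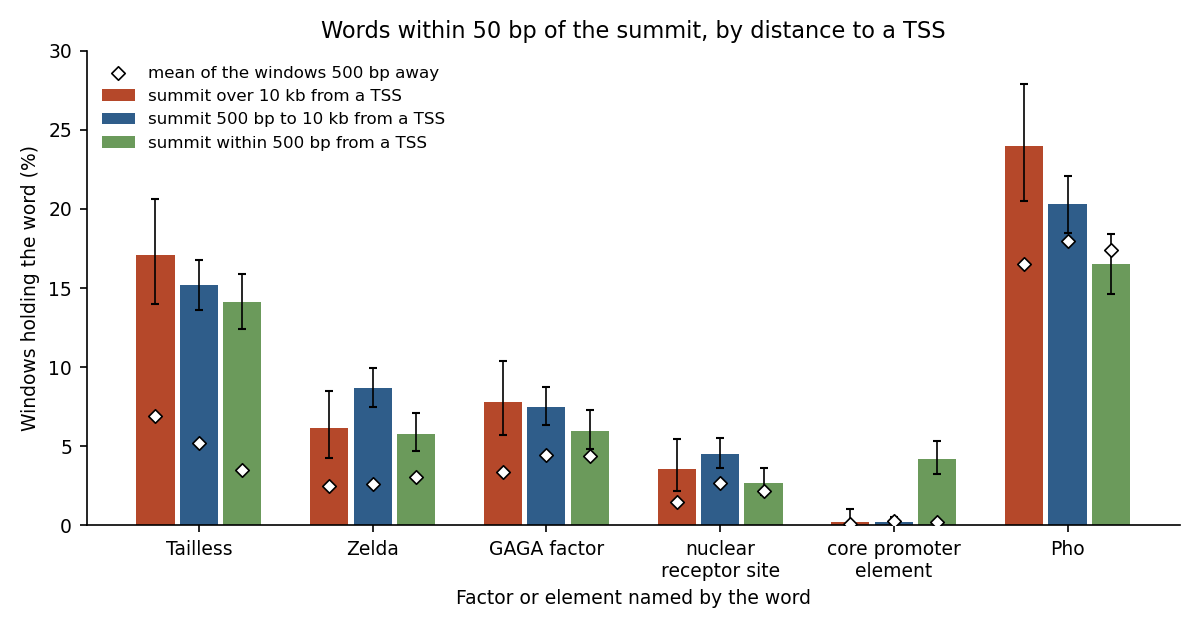
Share of summit windows (50 bp to either side) that hold each word (y axis, percent; bars with exact binomial 95% intervals) for summits over 10 kb, 500 bp to 10 kb and within 500 bp of a TSS; diamonds are the mean of the windows 500 bp to either side. Words are named on the x axis by the factor or element they belong to; the Tailless bars are 17.1%, 15.2% and 14.1%.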

How the data were processed

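Tailless-GFP ChIP-seq of 2 biological replicates of 0 to 4 h embryos was available as 4 peak lists in dm6 coordinates, per the file headers and labels: 1 per replicate, 1 pooled and 1 past an irreproducible discovery rate threshold. Per the file headers, both replicates were called against 1 shared control alignment. The sources used here do not name the aligner, the peak caller or the threshold's value. The deposited signal value ranks the entries on an unstated scale, and the −log10 q-value in the authors' files was not used. The thresholded list held the 4045 strongest entries of the pooled list, and each other list held 30000. Depth is unknown, because the lists hold no read counts.

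Summits were placed with Ensembl release 115 (BDGP6.54) and the Release 6 genome, using Python 3.11.15, numpy 2.4.6, pandas 2.3.3, scipy 1.17.1 and matplotlib 3.10.9, in code tested on made-up positions. A replicate's value at a summit is that of its strongest entry overlapping the interval by at least 1 bp. Shared intervals (112 of the remote summits) share values. Each share has an exact binomial 95% interval, which covers no more than counting error, as summits close together are linked. No test was run: there is 1 group, and summits are not replicates. The members and the 20 gene lists (250 symbols, all matched, 5 by another name) were chosen with earlier results of these data known. Named summits were the 20 strongest, the 5 farthest, up to 3 strongest per list, the 6 gaps (and 1 tied with the last) and 6 hosts with most, and 5 on either side of 10 kb; those between or beside other genes were named after their values were seen. Sequences were taken around the 8 strongest remote summits with AAGTCA and 2 without, leaving out 1 arm; 1 of the 8 is not reported here. Alternatives were other distance limits, TSS sets, overlaps and windows, 1 summit per interval, the stronger part of the list and each replicate alone.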

Additional observations from a re-analysis of the deposited data

Results flagged for a closer look

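The word AAGTCA was also found at remote summits outside the thresholded list. Of 4245 pooled summits that lay over 10 kb from a protein-coding TSS and ranked below the threshold, 456 (10.7%, exact 95% interval 9.83 to 11.7%) held it within 50 bp, against 4.94% of the windows 500 bp to either side, a ratio of 2.18. These summits lie outside the thresholded list and were used above only for their number and their listed neighbours, and there were no control samples to set beside them. The longer word AAAGTCA was at 5.21% of them with 2.04% in the flanks, and CAGGTA at 2.71% with 1.72%. The part of base composition in these shares was not tested.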

How the results depend on the processing

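Of 66 alternative values for 7 results, 35 stayed within the interval of the reported value (for the signal ratio, within 0.00246, the SD between replicates) and 31 moved. With the limit at 5, 15 and 20 kb the remote share was 26.5%, 6.85% and 4.05%, the signal ratio 1.09, 1.06 and 1.05, and the share of gaps occupied 14.7%, 14.9% and 14.2%. At 20 kb 41.5% were intronic and 28.7% had a listed neighbour. With 1 TSS per gene the remote share was 21.2%, the signal ratio 1.05, gaps occupied 21.2%, intronic share 63.3% and listed neighbours 26.2%. With non-coding TSSs added these were 8.13% remote, 13.0% of gaps, 55.6% intronic and 27.7% listed, so annotation sets much of the membership. In the stronger part of the list (ranks 1 to 2022) 14.7% were remote, with a signal ratio of 1.04, 100% recovery, which the ranking itself favours, and 11.2% of gaps occupied. With 1 summit per interval the signal ratio was 1.06. Without replicate 1 or 3 the remote share was 13.1% to 13.2%, the signal ratio 1.05 in both, gaps occupied 16.0% to 16.3%, intronic share 44.9% to 46.8%, listed neighbours 35.3% to 35.6% and AAGTCA share 14.3% to 16.1%. Recovery needs both replicates; it was 73.7% when overlap had to cover 0.5 of the interval and 69.6% for summits within 100 bp. AAGTCA was at 27.2% in windows of 100 bp to either side, and its ratio with flanks at 1000 bp was 3.61, and 2.69 at other summits, the reverse of the order at 500 bp. The nearest gene alone was listed for 24.2%. Causes of these shifts were not tested beyond what each alternative's construction sets. No paired analysis was possible because there was 1 group.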

Other observations

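Remote from every protein-coding TSS did not mean remote from the TSS of every transcript. A TSS of a non-coding gene lay within 500 bp of 33 remote summits (6.15%, exact 95% interval 4.27 to 8.52%) and of 4.99% of the others: 28 belonged to ncRNAs, 4 to tRNAs and 1 to a snoRNA. Within 2 kb there were 78 (14.5%). The rank 1 summit lay 105 bp from a TSS of lncRNA:CR44931, the rank 32 summit in the Dfd to Scr gap 128 bp from lncRNA:CR45915, the rank 90 summit in RapGAP1, a GTPase regulator gene, 73 bp from lncRNA:CR44082, and the rank 213 summit beside SoxN 234 bp from lncRNA:CR45365. These pairs were picked after their distances were seen.

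Remote summits also differed in how they stood to the direction of transcription of their neighbours. For 190 (35.4%, 31.3 to 39.6%) the summit was upstream of neither flanking TSS, as between convergent genes, against 18.9% of other summits, and for 65 (12.1%) it was upstream of both, against 27.8%. One gene had a TSS on both sides of 43 remote summits (8.01%) and of 23.0% of the others. Remote summits shared an interval with another summit in 112 cases (20.9%, 17.5 to 24.5%) against 14.3%, and 196 (36.5%) had another within 1 kb against 31.3%. The summit base was soft-masked repeat in 12.5% of remote and 15.7% of other summits. The other summits here include the 1519 within 500 bp of a TSS, and those from 500 bp to 10 kb were not set apart. How far the distance rule itself sets these shares was not tested. No test was run on these shares.

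Cell death genes, which were on no list, had remote summits as well. Between grim and rpr, activators of apoptosis, 7 summits stood in 1 gap, all intergenic, with replicate 1 values of 94.4 to 616 and replicate 3 values of 94.3 to 475. In an intron of hid, of the same family, a summit of pooled value 888 ranked 167. Between the POU domain gene vvl and Prat2 there were also 7, led by one 31034 bp from vvl with a pooled value of 1010.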
